A study of Mus musculus with 9 samples.

Results

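The 9 genes Sim1, Tfap2b, Mecom, Irx1, Irx2, Irx3, Pou3f3, Hnf4a and Emx2 encode transcription factors of the proximal, intermediate and distal tubule of the nephron. Every probe set whose only gene symbol in the platform annotation was one of these names was taken, which gave 17 probe sets for the 9 genes, out of 45101 on the array. The series measured renal vesicles that had been laser-captured from kidneys of E12.5 mouse embryos, with 5 wild-type samples and 4 samples from Lim1 mutants. Each sample pooled about 30 to 50 vesicles and was hybridised to its own array after amplification in 2 rounds. Lim1 is the older name of Lhx1, which encodes a transcription factor with LIM domains and a homeodomain that acts early in nephron formation. The sources used here give no mutant allele, Cre line, strain or number of embryos per sample.

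The renal vesicle is the first epithelial ball of each nephron, and it lengthens into a curved tubule whose parts take on different segment fates. Hnf4a is the nuclear receptor that drives the proximal tubule programme. Irx1, Irx2 and Irx3 are Iroquois homeodomain factors of the intermediate part, the future loop of Henle, and Pou3f3, also called Brn1, is a POU factor needed for the loop and distal tubule. Tfap2b, an AP-2 factor, acts in the distal convoluted tubule. Mecom, a zinc finger factor also called Evi1, and Sim1, a bHLH-PAS factor, have known roles in segmenting the zebrafish pronephros. Emx2 is a homeodomain factor of the ureteric bud and of early nephron epithelia, and mice without it form no kidneys.

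The libraries were checked before the members were compared. Of 14 measured markers of the renal vesicle, all 14 passed the filter on dim probe sets, among them Wnt4 at 12926 to 43230 and Jag1 at 20141 to 49181 on the 9 arrays. The mutated gene had 2 probe sets. At the dimmer, Lhx1 read 2327 to 17587 on the wild-type arrays and 6.88 to 10.5 on the mutant arrays (log2 difference -6.64 ± 0.57 SE, limma adjusted p = 0.0033). At the brighter, it read 1696 to 18555 and 4108 to 4951, and the groups overlapped (-0.86 ± 0.58, adjusted p = 0.833). The signal of the dimmer probe set was thus lost on all 4 mutant arrays. Without knowledge of the allele, whether the brighter one lies outside the altered stretch cannot be told. Wild-type arrays 3 and 1 had the lowest mean correlations with the other arrays, 0.784 and 0.802, against 0.826 to 0.864 for the other 7.

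The members were lower in the mutants at most probe sets, yet none passed the test over all probe sets. Of the 17, 12 had a mean at or above the filter, at least 1 for each of the 9 genes, and were tested. None of these 12 passed an adjusted p of 0.05 in limma, which called 0.0333% of the 27022 probe sets tested. An unadjusted p under 0.05 with a lower level in the mutants was reached by 5 of the 12, the brightest probe sets of Sim1, Tfap2b, Mecom, Irx3 and Emx2, where the share over all probe sets tested was 2.87%. None of the 12 reached it in the other direction, where the share was 3.8%. Differences were below 0 at 11 of the 12, against 47.3% of all probe sets tested, and below -1 at 6, against 6.01%. With the 5 dim probe sets included, 15 of 17 lay below 0, against 50.3% of all probe sets on the array that are not controls. The brightest probe sets of Sim1 and Tfap2b passed the filter only through their wild-type level, as did the second of Mecom, so a difference there was built into their selection. In pooled vesicles, fewer cells that express a gene and less of its RNA per cell cannot be told apart.

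**Figure D1:**
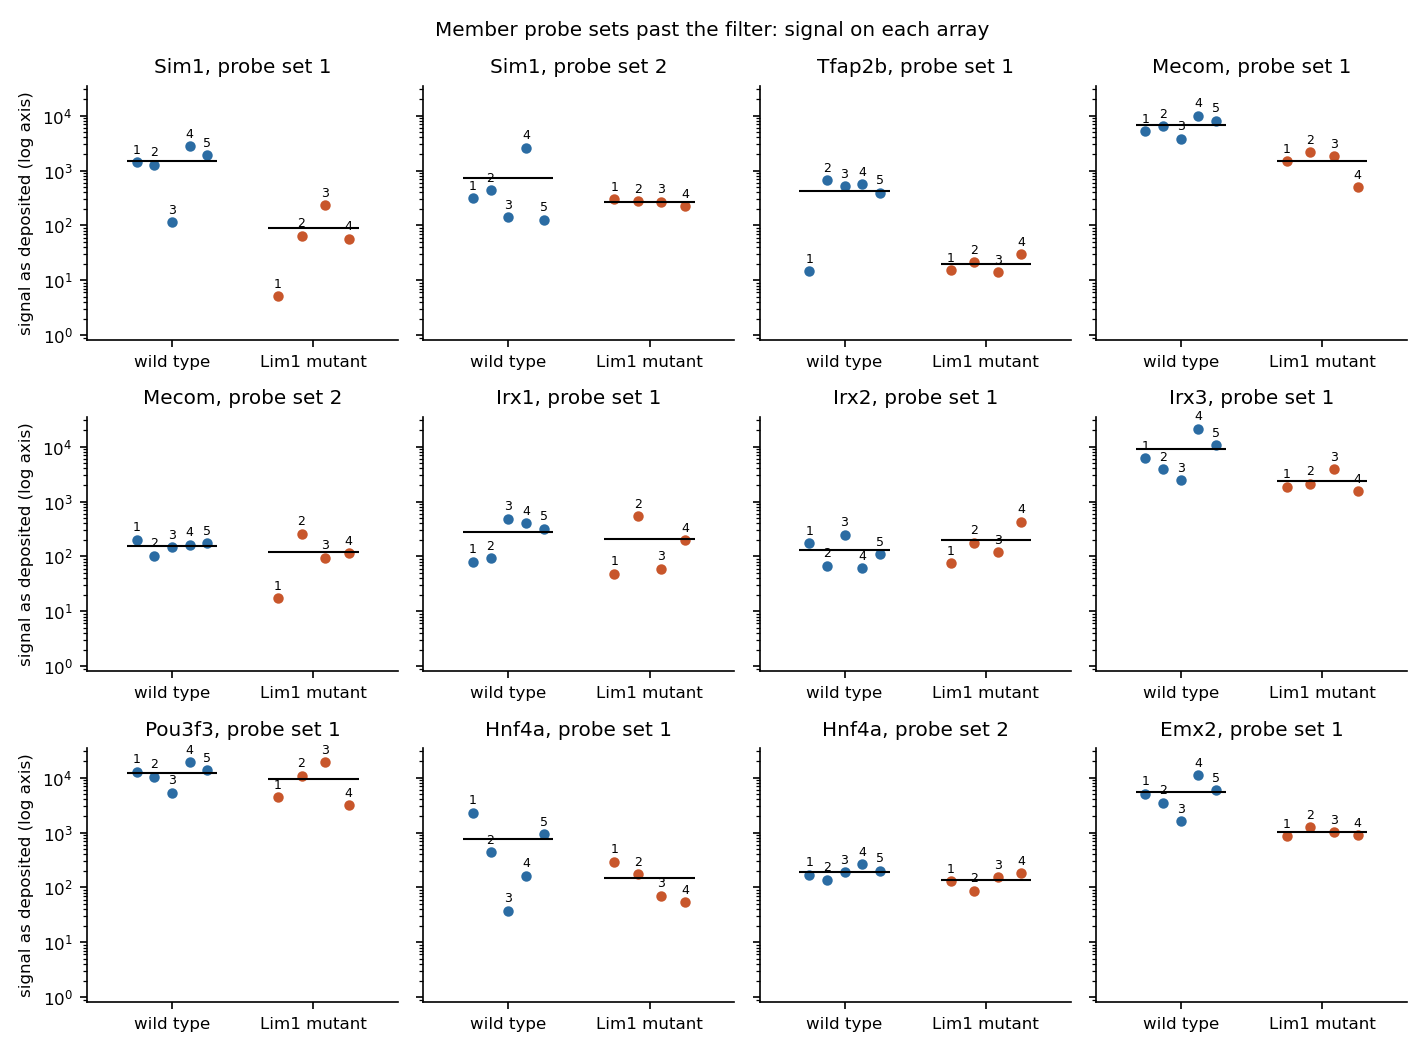
Deposited signal (log axis, arbitrary units) of the 12 member probe sets past the filter in wild-type (blue, 5 arrays) and Lim1 mutant (orange, 4 arrays) vesicles, with a dot for each array, its number above it and a line at the group mean. The groups are apart at the brightest probe sets of Mecom and Emx2 and overlap at the other 10.

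The groups were apart at 2 member probe sets, those of Mecom and Emx2, where 0.896% of all probe sets tested were lower on every mutant array than on any wild-type array. Mecom read 5175, 6358, 3786, 10058 and 8090 on wild-type arrays 1 to 5 and 1499, 2150, 1846 and 501 on mutant arrays 1 to 4. The lowest wild-type array stood above the highest mutant, and mutant 4 was the lowest of all. The means were 6694 ± 2457 (SD, n = 5) and 1499 ± 717 (n = 4), a log2 difference of -2.25 ± 0.48 SE with a 95% interval of -3.29 to -1.20 (limma adjusted p = 0.328). The call was missed, although the interval lay below 0 before adjustment over 27022 probe sets. Mecom had a second tested probe set that was dim, at 104 to 200 in the wild type and 17.3 to 258 in the mutants, with a difference of -0.58 ± 0.49 (adjusted p = 0.874). The groups overlapped there, single arrays left out moved it between -0.95 and -0.15, and the remaining probe set, below the filter, read 8.71 to 73.5 over the 9 arrays.

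Emx2, with a single probe set, read 5077, 3483, 1617, 11077 and 5900 in the wild type and 867, 1250, 1012 and 898 in the mutants. The 4 mutants lay close together, while the wild-type arrays spread widely, with array 3 only a little above the highest mutant. The means of 5431 ± 3555 and 1007 ± 174 gave a log2 difference of -2.16 ± 0.50, with a 95% interval of -3.26 to -1.05 (adjusted p = 0.387). Emx2 is also a gene of the ureteric bud, so its level was set beside that of other bud genes. The summed signal of 15 measured bud markers was 11548 to 72744 on the wild-type arrays and 7814 to 12847 on the mutant arrays. Wild-type arrays 2 and 3 had the highest sums, 72744 and 31966, and the lowest wild-type Emx2 signals. Wild-type array 4, with a bud sum of 11993, had the highest Emx2 signal. Over the groups, 8 of 11 tested bud markers had differences below 0 (median -0.88), where 43.5% of the 13194 genes tested did. Hoxb7, Gata3, Krt19 and Slco4c1 of the bud list lay below the filter, and of these Gata3 was lower on every mutant array than on any wild-type array. The groups were apart in this way at 0 of the 11 tested bud markers and at 1% of genes tested. The part of bud cells in the Emx2 difference was not tested.

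Sim1 and Tfap2b had the largest differences of the members, and at each of them 1 wild-type array read as low as the mutants. At its brighter probe set Sim1 read 1421, 1281, 114, 2813 and 1888 in the wild type and 5.07, 65.2, 233 and 57.6 in the mutants. Wild-type array 3 lay within the mutant range, and the other 4 wild-type arrays were above every mutant. The log2 difference was -3.37 ± 0.83, with a 95% interval of -5.19 to -1.55 (adjusted p = 0.484). Without wild-type array 3 it was -4.06 ± 0.60 (adjusted p = 0.083), and leaving out the lowest wild-type array enlarges it by construction. The other Sim1 probe set had a smaller difference, of -0.59 ± 0.72 (95% interval -2.16 to 0.98, adjusted p = 0.918). It read 128 to 436 on 4 wild-type arrays, 2594 on wild-type array 4 and 226 to 301 in the mutants. Without wild-type array 4 the sign of this difference turned, to 0.039.

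Tfap2b read 14.5, 669, 517, 559 and 397 on wild-type arrays 1 to 5 and 15.3, 21.6, 13.9 and 29.5 on mutant arrays 1 to 4. Wild-type array 1 was as low as the mutants, and the other 4 wild-type arrays were above each of them. The log2 difference was -2.53 ± 0.67, with a 95% interval of -4.00 to -1.06 (adjusted p = 0.544). Tfap2b was the only member called in any of the alternatives run: without wild-type array 1 it fell by 3.22 ± 0.36 on the log2 scale (adjusted p = 0.0181). That array was the lowest of the wild type, so leaving it out enlarges the difference by construction. The probe set also passed the filter only through its wild-type level, so the call cannot serve as support for a difference. Its mean lies close to the filter, and it dropped out of the test when any of wild-type arrays 2, 3, 4 or 5 was left out. A second probe set, below the filter, read 926 and 599 on wild-type arrays 2 and 4, at most 51.7 on the other wild-type arrays and at most 55.4 in the mutants.

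**Figure D2:**
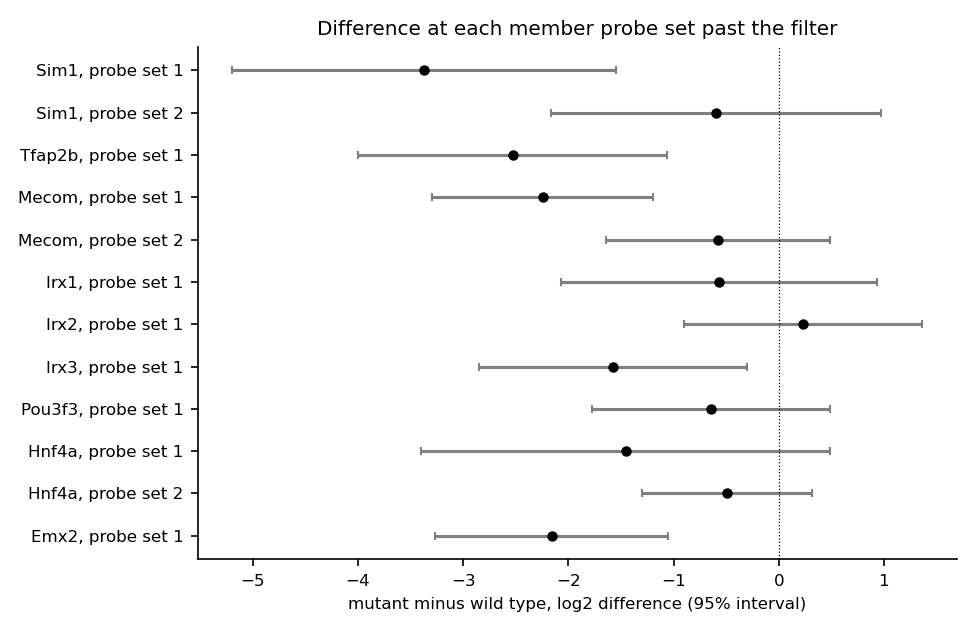
Mutant minus wild-type log2 difference at the 12 member probe sets past the filter, with 95% intervals from the limma fit over 5 wild-type and 4 mutant arrays. The intervals of Sim1, Tfap2b, Mecom, Irx3 and Emx2 (brightest probe sets) lie below 0 before adjustment, and none of the 12 passed after it.

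The start regions of the 4 genes with the largest differences are shown, because Lhx1 is a homeodomain protein and many homeodomains bind DNA with a TAAT core. They were taken from the RefSeq promoter table of build GRCm38.p6, which held 10 start windows for 8 of the 9 members, none for Irx1. Each runs from 250 bases before the start of the gene to 50 bases after it, 5′ to 3′ on the strand of the gene. Capitals mark TAAT on either strand, which reads ATTA on the other. The windows are chr10:50895401-50895700, plus strand for Sim1, chr1:19211804-19212103, plus strand for Tfap2b, chr3:30509710-30510009, minus strand for the first of the Mecom windows and chr19:59458440-59458739, plus strand for Emx2.
Sim1: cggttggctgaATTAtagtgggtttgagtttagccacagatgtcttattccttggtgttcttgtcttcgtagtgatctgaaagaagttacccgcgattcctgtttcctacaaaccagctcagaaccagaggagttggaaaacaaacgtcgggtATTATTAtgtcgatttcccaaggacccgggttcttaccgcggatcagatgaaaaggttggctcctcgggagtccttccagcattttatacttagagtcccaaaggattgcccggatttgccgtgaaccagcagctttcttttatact
Tfap2b: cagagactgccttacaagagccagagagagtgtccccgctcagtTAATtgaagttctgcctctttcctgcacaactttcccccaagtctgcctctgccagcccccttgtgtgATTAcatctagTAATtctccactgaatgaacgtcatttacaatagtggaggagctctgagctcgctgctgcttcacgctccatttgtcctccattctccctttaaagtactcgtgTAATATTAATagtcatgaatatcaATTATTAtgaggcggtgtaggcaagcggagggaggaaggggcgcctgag
Mecom: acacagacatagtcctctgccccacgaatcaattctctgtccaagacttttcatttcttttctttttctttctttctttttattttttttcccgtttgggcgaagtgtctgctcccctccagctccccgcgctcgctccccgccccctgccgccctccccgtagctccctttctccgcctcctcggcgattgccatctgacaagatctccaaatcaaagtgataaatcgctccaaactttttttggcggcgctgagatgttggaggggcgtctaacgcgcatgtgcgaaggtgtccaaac
Emx2: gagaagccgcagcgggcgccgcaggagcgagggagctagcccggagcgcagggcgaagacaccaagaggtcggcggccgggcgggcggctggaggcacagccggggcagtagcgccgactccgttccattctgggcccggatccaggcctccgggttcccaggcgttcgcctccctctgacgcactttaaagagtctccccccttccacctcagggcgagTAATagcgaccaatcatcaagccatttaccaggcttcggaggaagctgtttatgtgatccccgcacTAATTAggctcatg

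TAAT on either strand was present in 58.03% of the 32851 promoter windows of the table, at a median of 1 site per window. The 10 member windows held it in 7 cases. Tfap2b had 8 overlapping or separate sites, Sim1 3, Emx2 3 and the Mecom window shown none. The longer palindrome TAATTA, which contains TAAT on both strands, was present in 5.29% of all windows. Among the members it was found in the Emx2 window, within the last 50 bases, and in 1 of the Hnf4a windows. These matches describe the sequence only, and binding was not measured in the series.

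None of the 3 Iroquois genes passed the test, and differences between them were not tested. Irx3 was the brightest of the Iroquois members, with 6169, 3865, 2444, 21361 and 10553 in the wild type and 1860, 2118, 3905 and 1538 in the mutants. Mutant 3 reached the level of the lower wild-type arrays, so the groups overlapped. The log2 difference was -1.57 ± 0.58, with a 95% interval of -2.85 to -0.30 (adjusted p = 0.704). Irx1 was dim, with 80.4 and 92.5 on wild-type arrays 1 and 2, 322 to 485 on wild-type arrays 3 to 5 and 48.5 to 535 in the mutants. The highest Irx1 signal of all was on mutant 2, and the difference was -0.57 ± 0.69 (95% interval -2.07 to 0.93, adjusted p = 0.917). It was -1.14 without mutant 2 and -0.18 without mutant 1. Irx2 was dimmer still, at 61.4 to 248 in the wild type and 76.1 to 429 in the mutants, and it was the only tested member probe set with a difference above 0, at 0.23 ± 0.52 (95% interval -0.90 to 1.37, adjusted p = 0.958). Without mutant 4, which had the highest Irx2 signal, that difference was -0.12. The filter corresponds to a signal of about 102, so both genes were read close to it.

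Pou3f3, a factor of the loop and distal tubule, was bright in both groups. It read 12885, 10425, 5344, 19020 and 13762 in the wild type and 4464, 10849, 19224 and 3169 in the mutants. The mutants split, with mutant 2 in the wild-type range, mutant 3 just above the highest wild-type array and mutants 1 and 4 below the lowest. The means of 12287 ± 4988 and 9427 ± 7344 gave a difference of -0.64 ± 0.52, with a 95% interval of -1.77 to 0.49 (adjusted p = 0.866). It was -1.08 without mutant 3 and -0.25 without mutant 4, so single arrays set much of its size. The interval does not show that the level was unaltered. A second Pou3f3 probe set lay below the filter, at 24.1 to 213 over the 9 arrays, and a further one that the annotation shares with another gene was left out.

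Hnf4a, the proximal factor, had 4 probe sets, all dim on most arrays. The brightest read 2300, 435, 37.5, 163 and 947 in the wild type and 293, 177, 70.3 and 54.2 in the mutants. Wild-type array 1 alone carried much of the group mean, and wild-type array 3 was the lowest of all 9. The difference was -1.46 ± 0.89 (95% interval -3.40 to 0.49, adjusted p = 0.812), and -0.85 without wild-type array 1. The second probe set had 139 to 264 in the wild type and 87.0 to 183 in the mutants (-0.49 ± 0.37, adjusted p = 0.857). The other probe sets of Hnf4a lay below the filter, at 11.3 to 138 and 2.05 to 153.

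**Figure D3:**
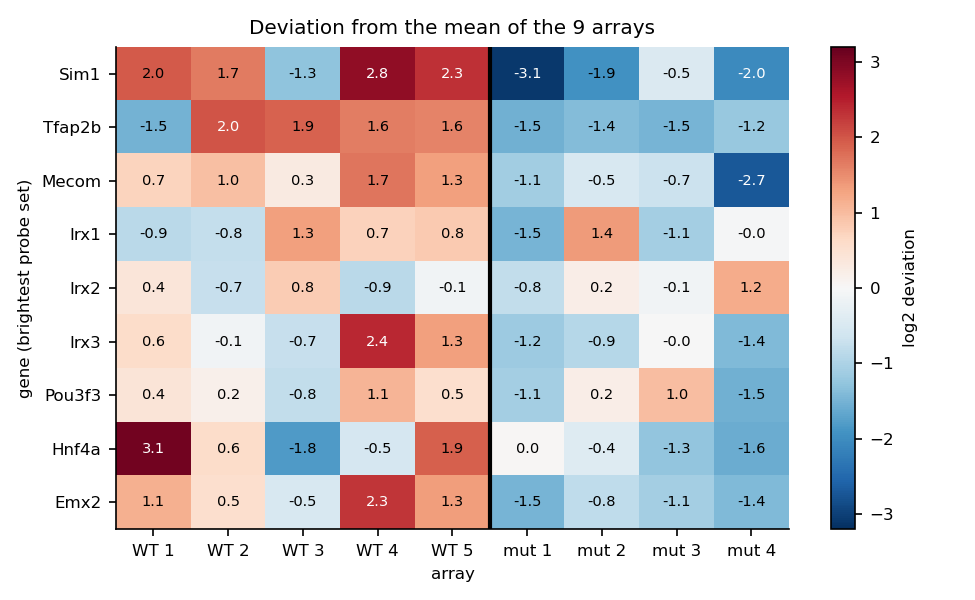
Log2 deviation of each member gene (brightest probe set, rows) from its own mean over the 9 arrays (columns, 5 wild type left of the line and 4 mutant right of it). Wild-type arrays 4 and 5 stand high for most genes, wild-type array 3 stands low for Sim1, Irx3, Pou3f3, Hnf4a and Emx2, and mutants 1 and 4 stand low for most.

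Several members shared 1 order among the wild-type arrays. Sim1, Irx3, Pou3f3 and Emx2, 4 of the 9 genes, each ranked the wild-type arrays 4, 5, 1, 2 and 3 from highest to lowest, an order found at 1.07% of the 13194 genes tested. The brighter Lhx1 probe set had the same order, and the dimmer one, at which Lhx1 fell, had the order 4, 1, 3, 2 and 5. The shared order was picked from these same data, so its share over all genes is a description only. The other tested Sim1 probe set did not have it. Wild-type array 4 was the highest of all 9 arrays at 6 of the 12 tested probe sets, and wild-type array 3 was the lowest wild-type array at 6. Among the mutants, arrays 1 and 4 were each the lowest at 5 of the 12. The median deviation of the 9 genes was 1.65 and 1.32 on wild-type arrays 4 and 5, 0.60 and 0.55 on wild-type arrays 1 and 2, and -0.51 on wild-type array 3. It was -1.16, -0.51, -0.68 and -1.41 on mutants 1 to 4, so wild-type array 3 stood at the upper end of the mutant range.

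Marker lists of the vesicle and of neighbouring cells moved with part of this pattern. The 14 renal vesicle markers had a median log2 deviation of 0.69, 0.53 and 0.47 on wild-type arrays 4, 1 and 5, and of -0.42 and -0.54 on wild-type arrays 2 and 3. On the mutants they were at -0.33 to -0.05, above wild-type arrays 2 and 3. Wild-type array 2 had a lower level of vesicle markers than any mutant, and its member level of 0.55 was above all 4 mutants. This is 1 array, and the part of vesicle content in the member levels was not tested. Summed signals of the vesicle markers were 132481 to 321903 in the wild type and 146651 to 185083 in the mutants. Of these 14 markers, 8 had differences below 0 and 6 above. The list includes the mutated gene, Lhx1, so its level is not a measure of vesicle content free of the mutation. Wild-type array 3 had the highest levels of stroma, endothelium and neural markers, at 2.15, 1.78 and 1.19. The sum over 14 stroma markers was 24916 to 201744 in the wild type and 36296 to 62612 in the mutants, that over 13 endothelial markers 5200 to 23855 and 5045 to 6620, and that over 7 neural markers 1213 to 6520 and 887 to 1718. Of these, Pecam1 and Tie1 of the endothelium and Tubb3 of the neural list lay below the filter. Differences lay below 0 at 11 of 11 tested endothelial markers (median -0.65), 10 of 14 stroma markers (-0.44) and 5 of 6 neural markers (-0.64), where 43.5% of the 13194 genes tested did and the median was 0.08. Mecom is also expressed in endothelium. Its highest wild-type signals were on wild-type array 4, with the second highest endothelial sum of the wild type (16701), and on wild-type array 5, with the lowest (5200), and the part of endothelial cells in its difference was not tested. Cap mesenchyme markers, the cells from which vesicles form, were at -0.45 to 0.08 in the wild type and 0.10 to 0.28 in the mutants, 12 measured with only Cited1 below the filter, and their part in the lower member levels was not tested. Podocyte markers were at -0.55 to -0.02 and 0.11 to 0.67, macrophage markers at -1.30 to 1.26 and -0.58 to 0.83 and erythroid markers at -0.37 to 0.997 and -1.78 to 1.18. On the cap mesenchyme and podocyte lists every mutant array was thus above every wild-type array, by a small margin for cap mesenchyme. These lists were singled out after the values of all lists were seen, and the podocyte list includes Foxc2. Differences lay below 0 at 4 of 11 tested cap mesenchyme markers (median 0.76) and 1 of 6 podocyte markers (0.42). They did so at 2 of 9 macrophage markers (0.39) and 4 of 5 erythroid markers (-0.31), beside the same 43.5% of genes tested.

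**Figure D4:**
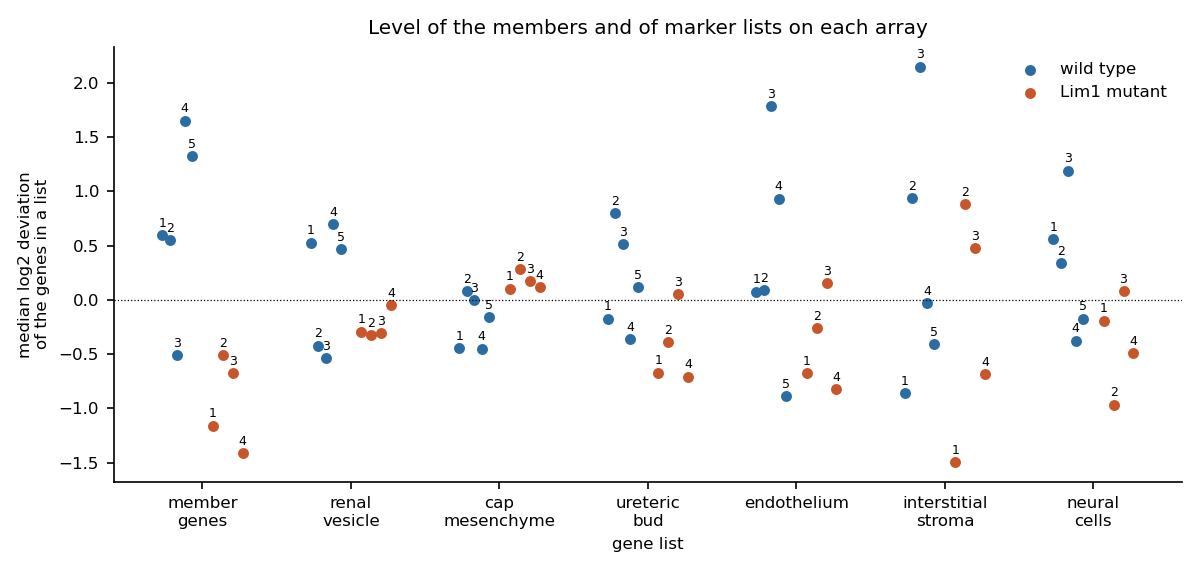
Median log2 deviation over the genes of each list on each array (numbered dots, 5 wild type in blue and 4 mutant in orange). Member genes are at 0.55 to 1.65 on wild-type arrays 1, 2, 4 and 5 and at -1.41 to -0.51 on the mutants and wild-type array 3, while stroma and endothelium peak on wild-type array 3.

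Paralogs of the members, from a list of 14 genes, gave a mixed picture. All 14 had a probe set, 6 were tested and none passed (0.0531% of 13194 genes did). Over all 14, 9 differences lay below 0 and 5 above, with a median of -0.10, where all genes with a probe set had a median of 0.04. Among the 6 tested, 5 lay below 0 with a median of -2.28, against 0.08 over all genes tested, and for 3 of these 6 only 1 group reached the filter. Pou3f1, a POU factor related to Pou3f3, was the only tested paralog whose groups were apart (1% of genes tested were lower in this way), with 209, 195, 463, 1822 and 882 in the wild type and 9.78, 6.91, 8.43 and 124 in the mutants. Its difference was -3.10 ± 0.66 (adjusted p = 0.328), and it too passed the filter only through the wild type. The next 4 paralogs were picked after their values were seen. Prdm16, the closest relative of Mecom, read 125 to 3113 in the wild type and 55.7 to 430 in the mutants (-2.73 ± 0.82, adjusted p = 0.647), although its other tested probe set was at -0.32. Tfap2a and Tfap2c, AP-2 factors like Tfap2b, had differences of -1.93 ± 0.66 and -2.63 ± 0.95 (adjusted p = 0.692 and 0.698), with -1.11 at another Tfap2a probe set, and Tfap2c passed the filter only through the wild type. Irx4 went the other way from Irx3, with 12.2 to 571 in the wild type and 291 to 2257 in the mutants (3.10 ± 0.88, adjusted p = 0.62), and it passed the filter only through the mutants. Irx5 was at -0.44 ± 0.50. Irx6, Tfap2d, Tfap2e, Sim2, Pou3f2, Pou3f4, Hnf4g and Emx1 lay below the filter.

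**Figure D5:**
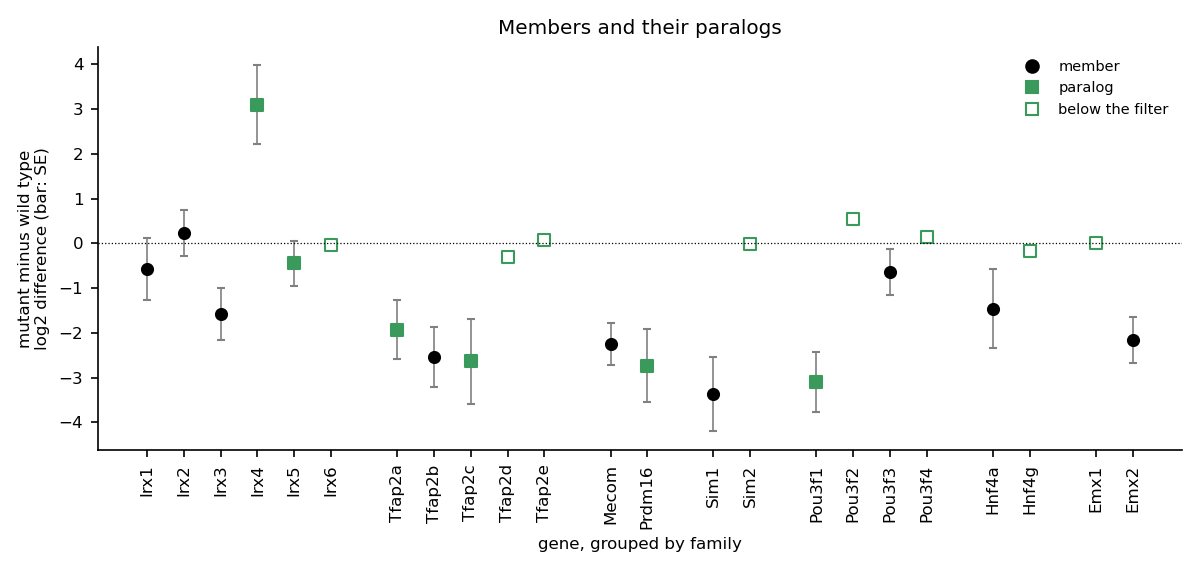
Mutant minus wild-type log2 difference of the 9 members (black circles) and 14 paralogs (green squares) by family, with SE bars for tested probe sets and open symbols below the filter. Prdm16, Tfap2a, Tfap2c and Pou3f1 lie below -1 and Irx4 lies above 3, none past the test.

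Other regulators of nephron patterning did not share a direction. Of 36 listed, 33 had a probe set and 30 were tested, with 14 differences below 0 and 16 above, a median of 0.06 (0.08 over all genes tested) and none past the test. Dll1, the Notch ligand of the distal vesicle, had a difference of -1.33 ± 0.48 (adjusted p = 0.697), Jag1, another Notch ligand, one of -0.52 ± 0.21 (adjusted p = 0.732), and Pax8, a paired-box factor, one of -0.63 ± 0.35 (adjusted p = 0.796). Groups were apart with the mutants higher at 2 of the 30, against 1.8% of genes tested: Cited2, a transcriptional coregulator (8684 to 14600 against 17932 to 21806, difference 0.90 ± 0.19, adjusted p = 0.328) and Foxc2, a forkhead factor of early podocytes (2296 to 8207 against 8415 to 13399, 1.59 ± 0.36, adjusted p = 0.355). The other tested Cited2 probe set was at -0.10.

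Genes of differentiated tubule cells ranged from below the filter to bright. Of 24 proximal tubule genes, 22 had a probe set and 12 were tested, with 6 differences on each side of 0 and none past the test. Their median was -0.07, against 0.08 over all genes tested. Of 20 genes of the loop and distal tubule, 18 had a probe set and 9 were tested, with 3 below 0 and 6 above and none past the test. The median was 0.72 over these 9 and 0.04 over all 18. Umod, the major urinary protein of the loop, read 12.1 to 140 over the 9 arrays, and Slc12a1 and Slc12a3, the salt transporters of the loop and the distal tubule, read 19.3 to 140 and 3.97 to 183. Slc34a1, the phosphate transporter of the proximal tubule, was at 62.2 to 280. Others of these lists were bright in both groups, among them Wnk1, a kinase that regulates salt transport, at 19580 to 37723. Wfdc2, a secreted epithelial protein, was at 6801 to 27973 and the cadherin Cdh6 at 5627 to 15158. The cadherin Cdh2 read 3464 to 6086 in the wild type and 5400 to 15070 in the mutants (1.07 ± 0.34, limma adjusted p = 0.652). The genes named here were picked after their values were seen.

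Genes with the pattern most like a member were ranked by the mean absolute difference between log2 deviations over the 9 arrays, among 13194 genes. Irx3 and Emx2 were near neighbours: Irx3 was the nearest of all genes to Emx2, at 0.34, and Emx2 was second nearest to Irx3 after Lef1, a Wnt effector, at 0.32. Second to Emx2 was Myo5b, a myosin of vesicle transport, at 0.37. Mecom was nearest to Rph3al (0.38) and Igfbp7 (0.39), Sim1 to Slc47a1, a tubule cation transporter (0.73), and to Tfap2c (0.82), and Tfap2b to Zfp119a (0.35) and H3f3b (0.58). Irx1 was nearest to Acer2 (0.28) and Fbxw16 (0.30), and Hnf4a to 1110064A23Rik (0.53) and Spin2c (0.56). Irx2 and Pou3f3 varied by an SD of at most 1 over the arrays and were not ranked.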

How the data were processed

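The authors deposited 1 linear intensity per probe set and array, made with the Affymetrix software GCOS, per the submitters' processing notes. Algorithm, version and scaling are not stated in the sources used here. Among deposited intensities, the mean without the lowest and highest 2% was 1500 on all 9 arrays. Intensities were transformed as log2(value + 42.4), the 25th percentile of all values, and quantile normalised. The 64 control probe sets were left out, and a filter kept the 27022 probe sets whose mean reached the 40th percentile. Mutant minus wild type was fitted over all of them with limma 3.58.1 in R 4.3.3 (two-sided, mean-variance trend, group as the only term), with Benjamini-Hochberg adjustment at 0.05, and the procedure was tested on simulated data. Log2 differences understate the change of dim probe sets, and amplification can lower probe sets far from the 3 prime end. The number of arrays limits the precision.

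For each gene the probe set of highest mean signal was used, and probe sets are numbered by falling mean. Every member probe set was named, and of the lists the genes past the test or, up to 3 per direction, without overlap between groups, with Lhx1, Jag1, Dll1 and Pax8 (a further gene of this rule is not reported here). A list level is the median log2 deviation of its tested genes from their means. The members and lists were chosen with earlier results of these data known. Alternatives covered normalisation, pseudocount, filter, variance model, array weights, arrays left out and pairing.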

Additional observations from a re-analysis of the deposited data

Results flagged for a closer look

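Among 34 groups of values (17 member probe sets, each in wild type and mutants), 4 held an array far from the rest by Dixon's test at the 95% level, where chance gives about 1.7, or 1 group in 20. The test used the normalised log2 values, while the signals given here are as deposited, so the flags do not follow from the signals alone. Sim1 at its brighter probe set read 114 on wild-type array 3, against 1281 to 2813 on the other wild-type arrays. Tfap2b at its brighter probe set read 14.5 on wild-type array 1, against 397 to 669 on the others. Both are low values in the wild type at genes with lower means in the mutants. The difference of each grew without that array, which follows from leaving out the lowest wild-type value. The other 2 were at probe sets below the filter: Tfap2b read 55.4 on mutant 2 at its dimmer probe set, against 8.81 to 13.1 on the other mutants, and Pou3f3 read 213 on wild-type array 1 at its dimmer probe set, against 24.1 to 45.1 on the others.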

How the results depend on the processing

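Over the 12 tested member probe sets and their alternatives, 245 of 248 values kept both their direction and their side of the threshold. Tfap2b without wild-type array 1, its lowest wild-type array, passed the threshold, at -3.22. Sim1 at its second probe set (-0.893 to 0.039 with single arrays left out, the latter without wild-type array 4) and Irx2 (-0.118 to 0.539, the former without mutant 4) turned sign, and neither was a call. When single arrays were left out, 0 to 1 member probe sets passed and 3 to 8 of all probe sets, against 0 and 9 with all arrays. Among all probe sets, 0 passed in limma without wild-type arrays 1 and 3 (2012 at an unadjusted p under 0.05) and 1 without wild-type arrays 3 and 4, a pair chosen after seeing the data. With the replicate number as a block over replicates 1 to 4, 0 passed (1760 at an unadjusted p under 0.05), against 4 on the same 8 arrays without the block. Same-numbered arrays correlated at -0.105 to 0.0537 in their deviations from the group means, and differently numbered ones at -0.116 to 0.134. The correlations gave no sign that the numbers pair the samples, but with so few arrays they cannot exclude it. In these fits no member passed. The cause of these lower counts was not tested beyond the smaller number of arrays. With the tested probe sets of a gene averaged, Sim1 was at -1.98 and Mecom at -1.41, since their second probe sets showed less, and 1 listed gene passed, Lhx1 (-3.75 ± 0.47, adjusted p = 0.00838), against none at the brightest probe sets. With the pseudocount at the median of all values, Tfap2b was at -1.49. On the mutant arrays the brightest probe sets of Sim1, Tfap2b and Hnf4a read 5.07 to 293, around or below the filter, where signal over background limits what can be resolved. Those of Mecom, Irx3 and Emx2 read well above it, at 501 to 3905.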
